A study of Mus musculus with 3 samples.

Results

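Mesenchymal cells of the mouse embryonic kidney at E11.5 were compared before and after explant culture, on 1 plate of uncultured cells and 1 plate of cultured cells. A well counted as mesenchyme when Epcam, Cdh16, Pecam1, Ptprc, C1qa and Sox10 had no count, when Six2, Eya1 and Uncx together had under 2 counts, when Col1a1 and Col3a1 together had at least 1 count, and when its total was at most 3 times the plate's median. This chose 318 of the 837 single-cell wells kept in the series: 113 of 337 on the uncultured plate (33.5%, exact binomial 95% interval 28.5 to 38.8) and 205 of 300 on the cultured plate (68.3%, 62.7 to 73.6). The same rule chose 138 of 200 wells on a further plate of cultured E12.5 kidney cells (69.0%, 62.1 to 75.3), whose levels are set beside the others. All 3 plates are of C57BL/6 mice. The uncultured cells carried the Lgr6-EGFP-IRES-CreERT2 allele, in which the promoter of Lgr6, which codes for a receptor of R-spondins, drives a fluorescent protein and a tamoxifen-dependent Cre recombinase, and both cultured plates carried a ROSA26-tdTomato reporter as well. Kidneys were cultured as explants in serum-containing medium; the E11.5 explants were cultured for 7 days by the sample's title and for 5 days by its stage label, and the E12.5 explants for 5 days by both. The number of embryos behind a plate and the sort gate are not given in any source used here. Since each group is 1 plate, culture, the reporter allele and the sequencing run, which also differed, cannot be told apart.

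The kidney grows by exchange between the ureteric bud, the nephron progenitors that cap its tips and the loose mesenchyme, or stroma, around both. Early stromal cells carry the forkhead factor Foxd1, make retinoic acid and later give rise to interstitial fibroblasts, vascular smooth muscle, pericytes and renin cells. In explant culture the mesenchyme spreads on its support without blood flow, in medium that contains serum.

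Because the gate is built from measured counts, the values of its genes describe the choice and are no result. On the uncultured plate 71 mesenchyme wells had no count of Six2, Eya1 or Uncx and 42 had 1, while 23 wells with exactly 2 fell just outside. On the cultured plate these numbers were 162, 43 and 9. Collagen decided little: 3 uncultured wells and 0 cultured wells failed on it alone, and 6 uncultured wells passed with a single count of Col1a1 or Col3a1, against a median of 17 such counts per uncultured and 107.7 per cultured mesenchyme well. By depth 1 uncultured well with 21033 counts and 3 cultured wells, the shallowest with 29897 counts, were left out, and the deepest wells inside held 17682 and 25636 counts. Of the 11 gate genes, Col1a1 stood at 1513 (1422 to 1608) CPM in uncultured and 12651 (12491 to 12813) CPM in cultured wells and Col3a1 at 2009.9 (1904 to 2119) and 6196 (6084 to 6309) CPM; CPM are counts per 1000000 counts of nuclear-encoded genes, summed over the mesenchyme wells of a plate, with an exact Poisson 95% interval in parentheses.

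Uncultured mesenchyme wells held a median of 5245 counts and 2857 genes, cultured wells 8119 counts and 3565 genes, and the sums over wells were 680296 and 1883654 counts. The 15 control wells per plate held a median of 632 counts on the uncultured and 150 on the cultured plate, on average 15.2% and 1.99% of a mesenchyme well, so background took a larger part of the uncultured counts. Of the 384 positions of a plate, 60 held a mesenchyme well on both E11.5 plates; the plates are separate libraries, so a shared position is not a shared cell. Sex-linked transcripts differed between the plates: 18 uncultured wells had Xist without a Y-linked transcript and 61 the reverse, against 110 and 42 cultured wells. Both were counted in 11 uncultured and 43 cultured wells and neither in 23 and 10, and such wells are in neither subset by sex. Why some wells held both was not tested. In a list of stroma and mesenchyme markers, none of the 17 genes outside the gate was at 0 on either plate. Only 1 of 15 nephron progenitor markers was at 0 on each plate too, so sums above 0 over this many wells do not test the label. Pdgfra and Meis1, which the gate did not use, were chosen after their values were seen. Pdgfra, the receptor that marks fibroblasts, stood at 378 (333 to 427) CPM before and 409.9 (381 to 439.8) CPM after culture. Meis1, a homeobox factor of stroma, stood at 370.4 (326 to 419) and 314 (289 to 341) CPM.

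Markers of other cell types were not all at 0, and some lists had counts in many wells. The epithelial list summed to 123 CPM in uncultured and 64.2 CPM in cultured wells, with 6 and 5 of its 17 genes at 0, and Epcam and Cdh16 at 0 by choice. Endothelial markers summed to 63.2 and 96.6 CPM with 3 and 1 of 11 genes at 0, and macrophage markers to 67.6 and 84.9 CPM with 3 and 2 of 11 at 0. The nephron progenitor list summed to 398 and 297 CPM, cartilage markers to 740 and 330.2 CPM, and coelomic epithelium and gonad markers to 544 and 298 CPM. In this order, 72, 66 and 65 of 113 uncultured wells and 118, 110 and 97 of 205 cultured wells had at least 2 counts of the list. Neural and neural crest markers summed to 131 and 104 CPM, with the highest cultured well at 7509 CPM. Skeletal muscle markers summed to 436 and 36.6 CPM, and 58.2% of the uncultured counts lay in 1 well. Granulocyte and platelet markers summed to 51.4 CPM in 28 uncultured wells and 123 CPM in 125 cultured wells, with at most 7 counts in a well; Elane, the gene of neutrophil elastase, had no uncultured count and stood at 37.2 (29.0 to 47.0) CPM after culture. In E12.5 cultured wells Elane had no count, and the list summed to 8.44 CPM in 11 wells. Erythroid markers summed to 77.9 CPM before culture and were all at 0 after it, which allows up to 1.59 CPM, the level of 3 counts over the plate. On the E12.5 cultured plate they summed to 241 CPM, in 118 of 138 wells. With wells that had at least 2 counts of the epithelial, endothelial, granulocyte, neural or skeletal muscle list left out as well, 58 uncultured and 107 cultured wells remained, in which 1098 of 8452 genes were at least 2-fold higher and 951 lower. No wells were left out by the nephron progenitor, cartilage or coelomic list.

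Of 11012 genes with at least 20 counts over both plates, 1618 were at least 2-fold higher in cultured mesenchyme (14.7%) and 1080 at least 2-fold lower (9.81%), and the median log2 ratio was -0.08. These shares are the background for every count of list members that follows, where higher and lower members are those at least 2-fold apart on at least 20 counts. With 1 plate per group no test was possible and cells are no replicates, so the exact 95% intervals reflect counting error alone. An interval whose lower bound is under 1 also holds the opposite direction. Within wells that had Y-linked transcripts and no Xist (61 uncultured, 42 cultured) 829 of 7239 genes were at least 2-fold higher and 974 lower, and within wells with Xist and no Y-linked transcript (18 and 110) 1264 of 8557 were higher and 1217 lower. The plot of all genes shows 14 of the 15 genes with the highest ratio and the 15 with the lowest, ranked by the limit of the interval nearest to 1. Among the highest were Col15a1, Dcn, Ndufa4l2, Klf2, Eln, Socs3, Penk, Klf9, Lox, Aldh1l2, Adamts2, Ifitm3, Col6a2 and Igfbp7, a set in which matrix genes stand beside genes of low oxygen, stress and steroid response. The lowest were Col2a1, Hmga2, Crabp1, Nnat, Crabp2, Aldh1a2, Clstn2, Bmper, B3gnt5, Foxc1, Mecom, Peg3, Foxd1, Sfrp2 and the uncharacterised transcript Gm26771, with genes of retinoid handling, embryonic growth and early stroma among them. Over all kept wells, which hold the other cell types of the plates too, these 14 ratios lay between 5.25 for Col15a1 and 76.0 for Dcn, and of the 15 lowest Sfrp2 and Gm26771 were under 2-fold lower, with ratios of 0.524 and 0.515.

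**Figure D1:**
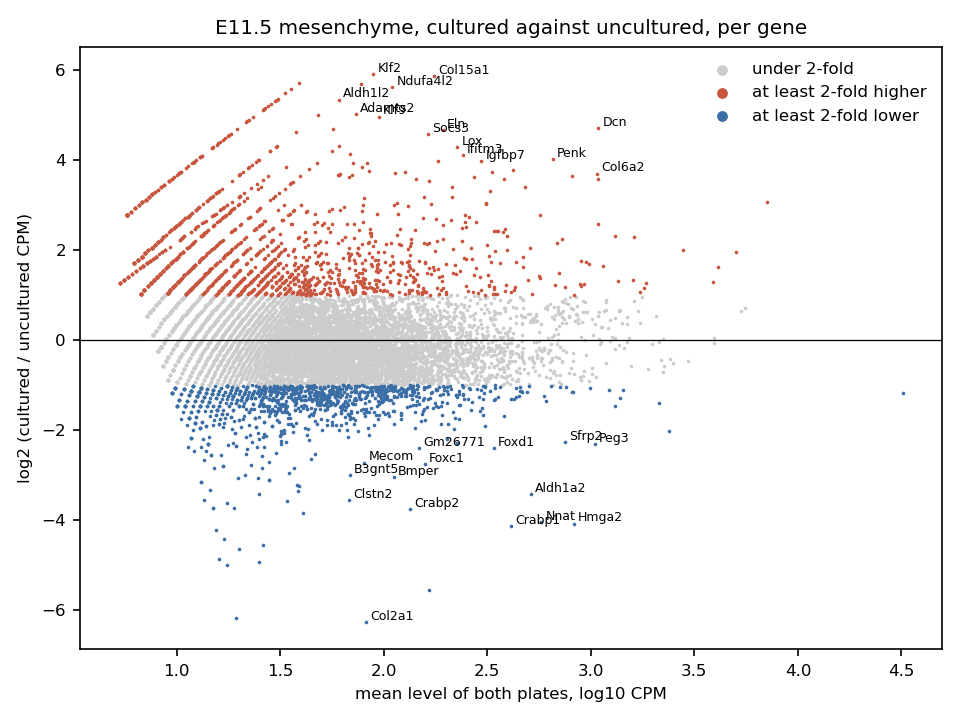
Each point is 1 of 11012 genes; the x axis is the mean of both plates' levels in log10 CPM and the y axis the log2 ratio of cultured to uncultured E11.5 mesenchyme. Red points are at least 2-fold higher, blue points at least 2-fold lower, and 29 genes of the highest and lowest ratios are named, from Klf2 at 59.6-fold higher to Col2a1 at 76.1-fold lower.

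Among 31 measured stromal transcription factors 9 were lower and 5 higher after culture, with a median log2 ratio of -0.36 against -0.08 for all genes. In all kept wells, cells of other types included, 6 of 32 were lower and 9 higher, with a median of 0.35. Foxd1, which marks the precursors of most renal stroma, stood at 570.3 (515 to 630.0) CPM before and 108 (93.5 to 124) CPM after culture, 5.29-fold lower (4.45 to 6.30), and it was counted in 82 of 113 uncultured but 73 of 205 cultured wells. Foxc1, a forkhead factor of early mesoderm and mesenchyme, stood at 275 (237 to 317) CPM before and 40.9 (32.3 to 51.1) CPM after culture, 6.72-fold lower (5.13 to 8.89). In cultured E12.5 mesenchyme Foxd1 stood at 219 (194 to 246) and Foxc1 at 75.2 (61.1 to 91.7) CPM. Mecom, a zinc finger factor with a histone methyltransferase domain, stood at 139.6 (113 to 171) CPM before and 21.2 (15.2 to 28.9) CPM after culture, 6.58-fold lower (4.50 to 9.77).

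In the opposite direction Osr2, a zinc finger factor of mesenchyme, stood at 14.7 (7.05 to 27.0) CPM before and 114 (98.9 to 129.9) CPM after culture, 7.73-fold higher (4.12 to 16.3). In E12.5 cultured wells it stood at 13.0 (7.6 to 20.9) CPM, and in E11.5 explants its cultured counts were spread over 67 wells. Tcf21, a basic helix-loop-helix factor of kidney stroma and podocytes chosen after its values were seen, stood at 112 (88.0 to 139.8) CPM before and 390.3 (362 to 419) CPM after culture, 3.49-fold higher (2.76 to 4.48). Ebf2 was 7.17-fold lower (4.01 to 13.4), with 64.7% of its 17 cultured counts in 1 well; without each plate's top well its log2 ratio was -4.09. Posterior Hox genes, which carry axial position, were mixed: 5 of 21 were at least 2-fold lower and 3 higher, with a median of -0.68. Hoxc10, with the most counts, was 2.59-fold lower (2.18 to 3.08), and Hoxc11 was 5.77-fold lower (2.79 to 12.6). Hoxd13 rested on few counts, at 4.41 (0.909 to 12.9) CPM before and 28.7 (21.5 to 37.4) CPM after culture, and stood at 1.54 (0.186 to 5.55) CPM in E12.5 cultured wells.

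The genes that make and bind retinoic acid in embryonic stroma differed among themselves. Aldh1a2, the enzyme that makes retinoic acid in early mesenchyme, stood at 940.3 (869 to 1017) CPM before and 88.1 (75.2 to 103) CPM after culture, 10.7-fold lower (8.99 to 12.7). Crabp1 and Crabp2 bind retinoic acid inside the cell: Crabp1 stood at 776 (711 to 845) CPM before and 44.6 (35.6 to 55.2) CPM after culture, 17.4-fold lower (13.8 to 22.2). Crabp2 stood at 248 (212 to 289) CPM before and 18.6 (12.9 to 25.8) CPM after culture, 13.4-fold lower (9.25 to 19.8). Crabp1 was counted in 75 of 113 wells before and 31 of 205 wells after culture, so the difference lay in the number of wells with a count as well as in the sum. Rbp4, the secreted retinol carrier, had no uncultured count and stood at 21.2 (15.2 to 28.9) CPM after culture, at least 4.82-fold higher (exact lower limit 3.74); where a plate had no count, the fold is against 3 counts over that plate, and the exact limit of the interval reaches lower. Of 14 measured retinoid genes 5 were at least 2-fold lower and 3 higher, with a median of -0.10, close to that of all genes. In all kept wells 5 of 15 were lower and 5 higher, with a median of 0.45. Summed per well, the list had a median of 2516 CPM (range 505 to 8834) in uncultured wells and 1517 CPM (range 244 to 3949) in cultured wells.

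**Figure D2:**
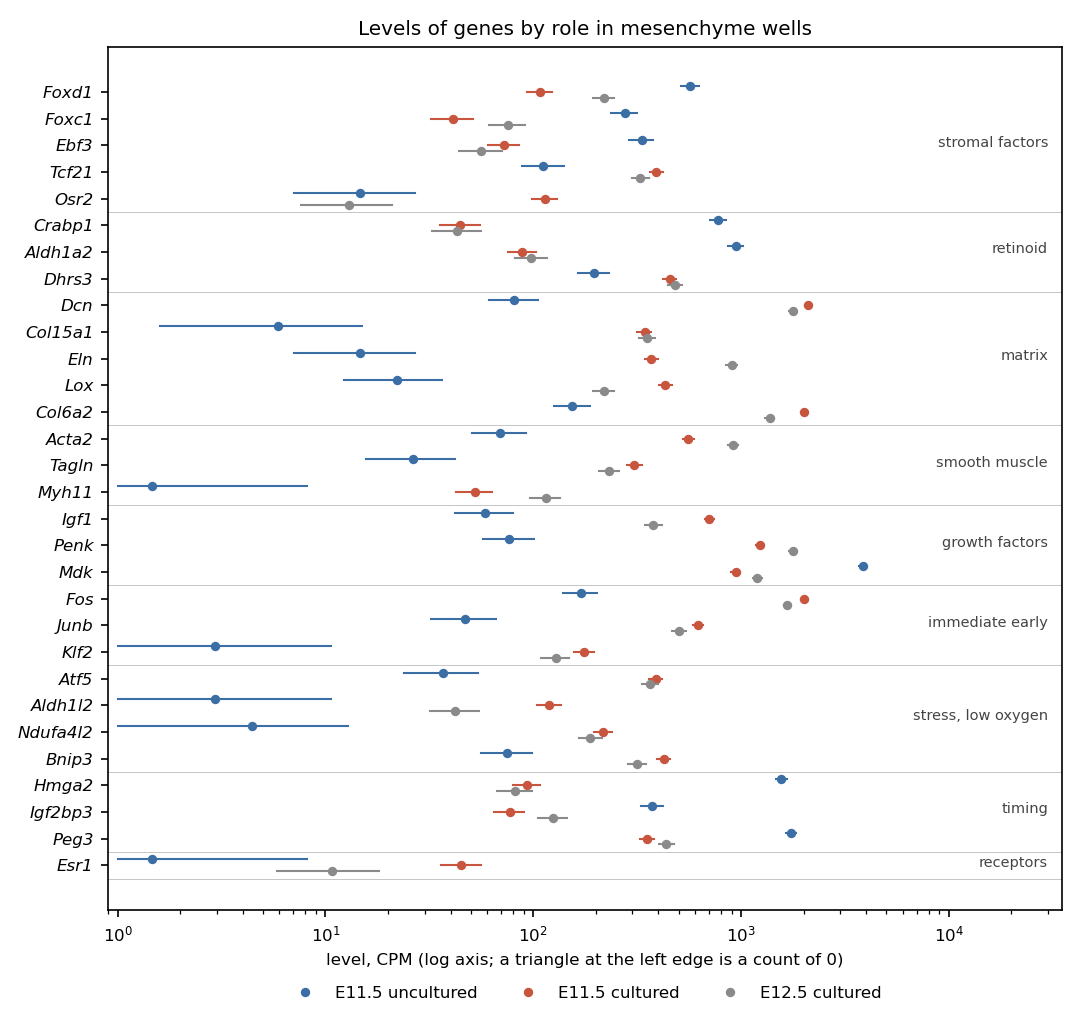
Levels of 30 genes grouped by role in E11.5 uncultured (blue), E11.5 cultured (red) and E12.5 cultured (grey) mesenchyme, in CPM on a log axis with exact Poisson 95% intervals; the genes were chosen after their values were seen. Red points lie right of blue for the matrix and stress genes, as for Dcn at 80.8 against 2096 CPM, and left of blue for the timing genes, as for Hmga2 at 1562 against 92.9 CPM.

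Collagens were higher after culture as a group. Of 14 measured fibrillar and associated collagens 13 were at least 2-fold higher and 0 lower, with a median log2 ratio of 2.5; Col1a1 and Col3a1 are among them and were used by the gate. Without them, a choice made after the data were seen, 11 of 12 were at least 2-fold higher, with a median of 2.5. Col15a1, a collagen of the zone next to basement membranes, stood at 5.88 (1.60 to 15.1) CPM before and 343 (317 to 370.4) CPM after culture, 58.4-fold higher (22.7 to 215), on 4 uncultured counts. It was counted in 4 uncultured and 136 cultured wells. Col6a2, a chain of the microfibrillar collagen VI, stood at 154 (126 to 187) CPM before and 1999.6 (1936 to 2064) CPM after culture, 13.0-fold higher (10.7 to 15.9). Col12a1, the member with the smallest difference, was 1.82-fold higher (1.37 to 2.45). Summed without the gate genes, the list had a median of 2709 CPM (range 0 to 11114) in uncultured wells and 12316 CPM (range 1679 to 55066) in cultured wells, and 110 of 205 cultured wells lay above the highest uncultured well.

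Genes that process collagen followed the same direction: 13 of 19 were at least 2-fold higher and 0 lower, with a median of 1.45. Lox, which cross-links collagen and elastin, stood at 22 (12.3 to 36.4) CPM before and 432 (403 to 463) CPM after culture, 19.6-fold higher (11.8 to 35.2). Adamts2, the protease that trims the amino end of fibrillar procollagens, stood at 4.41 (0.909 to 12.9) CPM before and 142 (126 to 160.4) CPM after culture, 32.3-fold higher (10.9 to 157), on 3 uncultured counts. Sparc, a collagen-binding protein with the most counts of the list, stood at 1115 (1036 to 1196) CPM before and 4472 (4377 to 4569) CPM after culture, 4.01-fold higher (3.73 to 4.33), whereas the prolyl hydroxylase gene P4ha3 was 1.57-fold lower (0.874 to 2.76). By well, the sum had a median of 3814 CPM (range 519.7 to 8079) in uncultured wells and 10605 CPM (range 1609 to 38326) in cultured wells, and 153 cultured wells lay above every uncultured well.

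The small leucine-rich proteoglycans, which bind collagen fibrils, had the highest median of the programme lists, 3.04, with 7 of 7 measured members at least 2-fold higher. Dcn, or decorin, stood at 80.8 (60.9 to 105) CPM before and 2096 (2031 to 2162) CPM after culture, 25.9-fold higher (19.9 to 34.5); 27.3% of its 55 uncultured counts lay in 1 well, and over all kept wells of both plates the ratio was 76.0. It was counted in 21 of 113 uncultured and 168 of 205 cultured wells. The uncultured wells had a median of 0 for the summed list and a highest value of 2849 CPM, against a median of 2030.4 CPM and a highest value of 14422 CPM after culture. Cultured wells were spread widely for this list, from 0 to the highest value, and 83 of them lay above every uncultured well. The list's smallest member, Prelp, was 2.41-fold higher (0.714 to 12.7) on few counts.

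Of 15 elastic fibre genes 8 were at least 2-fold higher and 1 lower, with a median of 1.05. Eln, tropoelastin, stood at 14.7 (7.05 to 27.0) CPM before and 370.4 (344 to 399) CPM after culture, 25.2-fold higher (13.6 to 52.8), and it was higher still in E12.5 cultured mesenchyme at 900.3 (849.5 to 953) CPM. Fbln1, a fibulin of elastic fibres and basement membranes, was 2.33-fold higher (2.05 to 2.66), and Efemp1, another fibulin, was 3.0-fold lower (1.26 to 7.19) on 13 uncultured and 12 cultured counts. Basement membrane genes had 7 of 15 members at least 2-fold higher and 1 lower, with a median of 0.99. Col4a1, a chain of the main collagen of basement membranes, stood at 107 (84.1 to 135) CPM before and 577 (544 to 613) CPM after culture, 5.38-fold higher (4.24 to 6.92). Lama1, the laminin chain of early epithelial basement membranes, was 3.30-fold lower (1.77 to 6.19).

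Matricellular genes, which act on cells from within the matrix, had 10 of 15 measured members at least 2-fold higher and 1 lower, with a median of 2.23. Igfbp7, a secreted protein that binds insulin-like growth factors, stood at 35.3 (22.6 to 52.5) CPM before and 557 (524 to 592) CPM after culture, 15.8-fold higher (10.6 to 24.8), and it was counted in 13 uncultured and 175 cultured wells. Fn1, fibronectin, with the most counts, was 1.58-fold higher (1.45 to 1.73). Nov, a secreted regulator of the Ccn family, had 1 uncultured count and stood at 43.2 (34.1 to 53.4) CPM in 15 cultured wells, with 43.3% of those counts in 1 of them. Cthrc1, a secreted protein of collagen turnover, was 2.13-fold lower (1.37 to 3.28). Matrix proteases and their inhibitors had 14 of 21 members at least 2-fold higher and 1 lower. Htra1, a secreted serine protease, had no count before and 52.0 (42.2 to 63.4) CPM after culture, at least 11.8-fold higher (exact lower limit 9.42). Mmp2, gelatinase A, with the most counts, was 1.45-fold higher (1.28 to 1.65), and Adamts9, a protease that cuts versican, was 3.64-fold lower (2.93 to 4.52).

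Contractile genes of smooth muscle were higher in part: 12 of 19 were at least 2-fold higher and 0 lower, with a median of 1.29. Myh11, smooth muscle myosin, had 1 uncultured count and stood at 52.2 (42.2 to 63.4) CPM in 26 cultured wells, 35.5-fold higher (6.21 to 1412), with 43.9% of the cultured counts in 1 well. Acta2 and Tagln, an actin and an actin-binding protein of smooth muscle chosen after their values were seen, were broader: Acta2 stood at 69.1 (50.8 to 91.9) CPM before and 557 (524 to 592) CPM after culture, 8.07-fold higher (6.02 to 11.1), in 159 of 205 cultured wells. Tagln stood at 26.5 (15.7 to 41.8) CPM before and 306 (281 to 332) CPM after culture, 11.6-fold higher (7.25 to 19.6), in 92 cultured wells. The widely expressed tropomyosins differed little, Tpm4 1.18-fold higher (1.06 to 1.32) and Tpm1 1.19-fold lower (1.05 to 1.34). Of 15 target genes of the mechanosensitive YAP and SRF factors 3 were at least 2-fold higher, with a median of 0.17; Ctgf was 5.51-fold higher (2.04 to 20.9) and Flna, filamin A, 1.09-fold higher (0.974 to 1.21).

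Pericyte and renin lineage markers had 6 of 9 measured members at least 2-fold higher and 1 lower. Ren1, renin, stood at 2.94 (0.356 to 10.6) CPM before and 152 (135 to 170.5) CPM after culture, but 96.5% of the cultured counts lay in 1 well, and without each plate's top well the log2 ratio was 1.85. Rgs5, a pericyte marker, was 2.70-fold lower (2.24 to 3.25), with 52.9% of the cultured counts in 1 well; without each plate's top well its log2 ratio was -2.38, and over all kept wells 0.10. Ndufa4l2, a mitochondrial protein of pericytes that also answers to low oxygen, stood at 4.41 (0.909 to 12.9) CPM before and 216 (196 to 238) CPM after culture, 49.0-fold higher (16.6 to 239), on 3 uncultured counts, and was spread over 95 cultured wells. The cartilage collagen Col2a1 stood at 162 (133 to 195) CPM before and 2.12 (0.579 to 5.44) CPM after culture, 76.1-fold lower (28.9 to 284), the widest difference of the genes ranked, in 40 uncultured and 4 cultured wells. Sox9, a factor of cartilage and of several other embryonic cell types, was 2.70-fold lower (2.24 to 3.25). Col9a2 went the other way at 3.34-fold higher (1.99 to 6.0), and 5 of 8 cartilage markers were at least 2-fold lower. Clstn2, a cadherin-like membrane protein, was 11.8-fold lower (7.17 to 20.2) and B3gnt5, an enzyme that builds glycolipids, 7.92-fold lower (5.14 to 12.55).

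Secreted signals and their inhibitors differed gene by gene. Penk, proenkephalin, an opioid precursor of embryonic mesenchyme, stood at 76.4 (57.1 to 100.2) CPM before and 1230.2 (1180.5 to 1281) CPM after culture, 16.1-fold higher (12.2 to 21.6), and it was counted in 16 uncultured and 164 cultured wells. Mdk, midkine, a heparin-binding growth factor of embryonic tissue, stood at 3842 (3697 to 3993) CPM before and 942 (898 to 987) CPM after culture, 4.08-fold lower (3.84 to 4.34). Ntf3, a neurotrophin, was 5.85-fold lower (2.52 to 14.7). Of 24 measured growth factors 8 were at least 2-fold higher and 4 lower, with a median of 0.06, near that of all genes. In the insulin-like growth factor axis 7 of 16 members were higher and 1 lower. Igf1, named after its values were seen, stood at 58.8 (42.0 to 80.1) CPM before and 704 (667 to 743) CPM after culture, 12-fold higher (8.74 to 16.8), while Igf2, its embryonic relative, was 1.04-fold lower (0.996 to 1.09).

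In the TGF-beta and BMP list 6 of 25 members were at least 2-fold higher and 2 lower, with a median of 0.43. Bmper, a secreted modulator of BMP signals, stood at 199.9 (168 to 236) CPM before and 24.4 (17.9 to 32.6) CPM after culture, 8.19-fold lower (5.82 to 11.7). Tgfb1 had 1 uncultured count and stood at 11.7 (7.32 to 17.7) CPM after culture, 7.95-fold higher (1.28 to 328), and Fstl1, a secreted follistatin-like protein with the most counts, was 1.57-fold higher (1.43 to 1.71). Of 23 Wnt pathway genes 13 were higher and 3 lower, with a median of 1.15, but over all kept wells the median was 0.11. Sfrp2, a secreted Wnt inhibitor, stood at 1245 (1163 to 1332) CPM before and 261 (238 to 285) CPM after culture, 4.77-fold lower (4.27 to 5.35). Ctnnb1, beta-catenin, was 2.07-fold lower (1.86 to 2.29), and Apcdd1, an inhibitor at the membrane, 6.86-fold higher (1.09 to 285) on 1 uncultured count. Hedgehog and Notch genes had 0 of 16 members at least 2-fold higher and 1 lower. Gli1, a target and effector of hedgehog signals, was 1.61-fold higher (1.16 to 2.28), and Gli3, which mostly represses them, 2.31-fold lower (1.92 to 2.79).

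Nuclear receptors and genes of the steroid response were higher after culture: 12 of 14 measured members were at least 2-fold higher and 1 lower, with a median of 1.84. Esr1, the estrogen receptor named after its values were seen, had 1 uncultured count and stood at 45.1 (36.0 to 55.8) CPM, 30.7-fold higher (5.36 to 1227), in 51 wells. In E12.5 explants Esr1 was lower than in E11.5 explants, at 10.7 (5.87 to 18) CPM. Klf9, a zinc finger factor that glucocorticoid and thyroid hormone receptors induce, stood at 5.88 (1.60 to 15.1) CPM before and 183 (164 to 204) CPM after culture, 31.1-fold higher (12.1 to 115). Fkbp5, another glucocorticoid target, was 2.77-fold lower (1.61 to 4.75). Nr4a1, an orphan receptor made within minutes of stimulation, stood at 60.3 (43.2 to 81.8) CPM before and 594 (559.8 to 629.9) CPM after culture, 9.86-fold higher (7.22 to 13.8).

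Of 17 inflammatory genes 13 were at least 2-fold higher after culture and 0 lower, with a median of 1.60. Socs3, the feedback inhibitor of cytokine receptors, stood at 13.2 (6.05 to 25.1) CPM before and 313 (288 to 339.5) CPM after culture, 23.7-fold higher (12.4 to 52.0), in 9 uncultured and 134 cultured wells. Icam1, a leukocyte adhesion molecule, had 1 uncultured count and stood at 53.6 (43.7 to 65.2) CPM, 36.5-fold higher (6.4 to 1455), whereas the related Vcam1 was 1.88-fold lower (1.18 to 2.97). Among interferon response and MHC class I genes 8 of 11 were higher and 0 lower. Ifitm3, a membrane protein that blocks virus entry, stood at 26.5 (15.7 to 41.8) CPM before and 454 (424 to 486) CPM after culture, 17.2-fold higher (10.8 to 29.1), its relative Ifitm2 was 2.28-fold higher (1.90 to 2.74) and B2m, the light chain of MHC class I, 1.47-fold higher (1.18 to 1.84). Macrophage markers summed to 67.6 CPM before and 84.9 CPM after culture, with Ptprc and C1qa at 0 by choice.

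Immediate early genes, which transcription factors already present in the cell switch on within minutes, were higher almost throughout: 21 of 22 were at least 2-fold higher and 0 lower, with a median of 2.83. Klf2, a zinc finger factor best known from endothelium under flow, stood at 2.94 (0.356 to 10.6) CPM before and 175 (157 to 195) CPM after culture, 59.6-fold higher (16.4 to 494), on 2 uncultured counts. Fos, a subunit of AP-1 with the most counts of the list, stood at 169 (139.6 to 203) CPM before and 2008 (1945 to 2073) CPM after culture, 11.9-fold higher (9.87 to 14.4), and was counted in 41 uncultured and 198 cultured wells. Jund, the AP-1 subunit that is least inducible, was 1.63-fold higher (1.42 to 1.88), the smallest difference of the list. The summed list had a median of 1482 CPM (range 0 to 7562) in uncultured wells and 8669.9 CPM (range 921 to 45683) in cultured wells, and 203 of 205 cultured wells lay above the uncultured median. The CArG box, the site of the serum response factor, was found on either strand in 5 of 28 promoter windows of 19 list genes (17.9%), in 2 genes, against 482 of 32851 windows in all (1.47%), in the 250 bases before the start sites that RefSeq gives on GRCm38.p6; it describes letters only. Heat shock genes were mixed: 6 of 16 were at least 2-fold higher and 3 lower, with a median of 0.00. Hsph1, a chaperone of the Hsp110 family, was 3.61-fold lower (2.73 to 4.79), and Hsp90ab1, the constitutive Hsp90, 1.03-fold lower (0.965 to 1.09). Both plates were dissociated with collagenase and sorted, per the labels' protocols; their times and temperatures are not stated there.

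The integrated stress response, in which the factor Atf4 raises amino acid synthesis and transport, had 22 of 33 measured members at least 2-fold higher and 0 lower, with a median of 1.56. Aldh1l2, a mitochondrial folate enzyme, stood at 2.94 (0.356 to 10.6) CPM before and 119 (104 to 136) CPM after culture, 40.4-fold higher (11.1 to 336), on 2 uncultured counts. Atf4 itself, whose activity is set mainly in translation, was 1.91-fold higher (1.61 to 2.27), and Cth, which makes cysteine, was 1.85-fold lower (0.742 to 4.39) on few counts. The promoters of 3 members that were higher are shown because they carry the C/EBP-ATF response element, TGATGNAAN on either strand, at which Atf4 pairs with C/EBP factors. Each sequence is the 250 bases before the start site in gene orientation, from RefSeq on GRCm38.p6, with the match in capitals: Nupr1 at chr7:126625471-126625720 on the minus strand, Atf3 at chr1:191183334-191183583 on the minus strand and Asns at chr6:7693210-7693459 on the minus strand.
Nupr1: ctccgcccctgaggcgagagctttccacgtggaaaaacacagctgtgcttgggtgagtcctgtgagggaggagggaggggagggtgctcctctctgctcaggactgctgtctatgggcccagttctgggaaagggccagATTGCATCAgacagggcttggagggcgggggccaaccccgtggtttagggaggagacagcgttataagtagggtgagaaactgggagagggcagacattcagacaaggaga
Atf3: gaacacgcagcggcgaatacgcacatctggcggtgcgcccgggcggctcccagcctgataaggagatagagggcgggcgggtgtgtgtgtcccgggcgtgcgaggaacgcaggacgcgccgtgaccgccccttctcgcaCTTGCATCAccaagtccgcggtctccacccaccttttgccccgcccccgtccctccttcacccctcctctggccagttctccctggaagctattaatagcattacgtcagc
Asns: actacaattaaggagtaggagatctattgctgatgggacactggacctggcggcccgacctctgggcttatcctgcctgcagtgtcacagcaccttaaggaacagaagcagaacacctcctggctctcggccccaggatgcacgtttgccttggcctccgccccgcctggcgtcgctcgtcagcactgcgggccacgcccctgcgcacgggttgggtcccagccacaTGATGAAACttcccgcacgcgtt
Nupr1, a small stress-induced chromatin protein, stood at 1.47 (0.0372 to 8.19) CPM before and 35 (27.1 to 44.6) CPM after culture, 23.8-fold higher (4.13 to 956), on 1 uncultured count. Atf3, a factor induced by Atf4, stood at 11.8 (5.08 to 23.2) CPM before and 81.8 (69.4 to 95.7) CPM after culture, 6.96-fold higher (3.44 to 16.4). Asns, asparagine synthetase, stood at 22 (12.3 to 36.4) CPM before and 108 (93.9 to 124) CPM after culture, 4.91-fold higher (2.91 to 8.94). The matches begin 111, 111 and 23 bases before the start site. Promoters were listed for 29 of the 36 list genes as 36 windows, of which 10 (27.8%) held a match, against 1129 of all 32851 windows (3.44%). Among the called members with a window 6 of 19 genes held one, against 10 of 29 list genes in all, called or not. A match describes letters and does not show that the site is used. Of 17 genes of the unfolded protein response 3 were at least 2-fold higher: Hspa5, the main chaperone of the endoplasmic reticulum, was 1.0-fold higher (0.916 to 1.10).

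Targets of the hypoxia-inducible factors, which cells accumulate when oxygen is low, had 22 of 25 members outside glycolysis at least 2-fold higher and 0 lower, with a median of 2.13. Ndufa4l2, given above among pericyte markers, had the highest ratio, Anxa2, an annexin with the most counts, was 2.09-fold higher (1.78 to 2.45), and Mxi1, an antagonist of Myc, 1.22-fold higher (0.849 to 1.8). The sequences show 3 promoters of higher members with the core of the hypoxia response element, ACGTG on either strand, in capitals, taken as before: P4ha2 at chr11:54100674-54100923 on the plus strand, Ankrd37 at chr8:45999851-46000100 on the minus strand and P4ha1 at chr10:59323046-59323295 on the plus strand.
P4ha2: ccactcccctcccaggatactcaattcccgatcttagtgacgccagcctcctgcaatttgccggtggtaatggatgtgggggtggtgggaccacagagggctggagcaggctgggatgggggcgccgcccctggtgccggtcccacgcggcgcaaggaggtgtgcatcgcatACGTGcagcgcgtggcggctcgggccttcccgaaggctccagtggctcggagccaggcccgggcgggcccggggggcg
Ankrd37: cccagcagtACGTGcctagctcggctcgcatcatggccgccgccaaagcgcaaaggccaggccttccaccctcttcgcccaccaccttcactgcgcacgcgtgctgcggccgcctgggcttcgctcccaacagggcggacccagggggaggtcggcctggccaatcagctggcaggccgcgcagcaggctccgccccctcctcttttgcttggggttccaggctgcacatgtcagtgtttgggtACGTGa
P4ha1: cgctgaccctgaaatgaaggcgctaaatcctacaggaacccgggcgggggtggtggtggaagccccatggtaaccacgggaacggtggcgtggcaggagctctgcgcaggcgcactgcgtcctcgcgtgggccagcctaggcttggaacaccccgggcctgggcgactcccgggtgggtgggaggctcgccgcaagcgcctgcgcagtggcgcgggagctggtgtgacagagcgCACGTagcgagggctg
P4ha2 and P4ha1 are catalytic subunits of collagen prolyl hydroxylase and so also belong to collagen processing. P4ha3, given above, is another such subunit and was 1.57-fold lower (0.874 to 2.76). P4ha2 stood at 22 (12.3 to 36.4) CPM before and 345 (319 to 372) CPM after culture, 15.6-fold higher (9.40 to 28.1). P4ha1 stood at 67.6 (49.5 to 90.2) CPM before and 446 (416 to 477) CPM after culture, 6.60-fold higher (4.90 to 9.08). Ankrd37, an ankyrin repeat protein, stood at 5.88 (1.60 to 15.1) CPM before and 53.6 (43.7 to 65.2) CPM after culture, 9.12-fold higher (3.45 to 34.1), and its window holds 2 matches, 241 and 6 bases before the start. The core is short and common: of 26 windows of 20 list genes 15 (57.7%) held it against 5444 of 32851 windows in all (16.6%). Among called members with a window 12 of 17 genes held it, against 14 of 20 list genes in all, called or not. By well, the list summed to a median of 1444 CPM (range 0 to 3598) in uncultured wells and 4229 CPM (range 536 to 23225) in cultured wells, and 114 cultured wells lay above the highest uncultured well.

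Glycolytic enzymes were higher with few exceptions, 16 of 18 at least 2-fold and 0 lower, with a median of 1.75. Gapdh, with the most counts, stood at 1079 (1002 to 1159.9) CPM before and 2605 (2532 to 2678) CPM after culture, 2.41-fold higher (2.23 to 2.61). Aldoc, the brain-type aldolase, had 1 uncultured count and was 13.0-fold higher (2.19 to 528), and Pfkp, a phosphofructokinase with 47.8% of its uncultured counts in 1 well, 1.27-fold higher (0.792 to 2.12); without each plate's top well the log2 ratio of Pfkp was 1.16. The summed enzymes had a median of 4086 CPM (range 0 to 8542) in uncultured wells and 10391 CPM (range 1767 to 42033) in cultured wells; the lower end of the cultured range overlapped the uncultured wells, and 42 cultured wells lay at or below the uncultured median. Nuclear genes of the respiratory chain had 3 of 29 at least 2-fold lower, close to the 9.81% of all genes, and 0 higher, with a median of -0.35. Atp5a1, a subunit of ATP synthase, was 1.69-fold lower (1.53 to 1.85), and Ndufa1 of complex I 2.05-fold lower (1.56 to 2.69). Transcripts encoded by the mitochondrial genome took a median of 7.38% of counts in uncultured and 3.13% in cultured wells. Relative to nuclear counts mt-Nd5, a subunit of complex I, stood at 6252 CPM before and 1705 CPM after culture, 3.67-fold lower (3.502 to 3.84), while the ribosomal RNA mt-Rnr1 was 1.06-fold lower (1.01 to 1.11). Of 13 measured mitochondrial transcripts 6 were at least 2-fold lower and 3, all with 1 or 2 uncultured counts, higher.

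Cholesterol synthesis genes had 10 of 19 members at least 2-fold higher and 0 lower, with a median of 1.10. Hmgcs1, an early enzyme with the most counts, was 1.77-fold higher (1.42 to 2.22). Lipid and lysosome genes had 6 of 16 higher; Scd2, a fatty acid desaturase of the embryo, stood at 554 (499.6 to 613) CPM before and 1744 (1684 to 1804) CPM after culture, 3.15-fold higher (2.83 to 3.51). In the oxidant and metal response list 3 of 14 were higher, with Ftl1, the ferritin light chain, 2.01-fold higher (1.8 to 2.25), and Txnrd1, thioredoxin reductase, 1.67-fold lower (1.20 to 2.31).

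Genes of mitosis were lower after culture: 18 of 30 were at least 2-fold lower and 0 higher, with a median of -1.09. Top2a, the topoisomerase that parts sister chromosomes, stood at 638 (579 to 701) CPM before and 289 (265 to 314) CPM after culture, 2.21-fold lower (1.94 to 2.51). Aurka, a kinase of the spindle poles, stood at 110.2 (86.7 to 138) CPM before and 25 (18.3 to 33.2) CPM after culture, 4.42-fold lower (3.03 to 6.50), and Bub1b, a checkpoint kinase, was 1.31-fold lower (0.863 to 1.97), the smallest difference. The sum of the list separated the wells unevenly: its median was 3255 CPM (range 409 to 20503) in uncultured wells and 495 CPM (range 0 to 20716) in cultured wells. In cultured mesenchyme 85 of 205 wells lay below the lowest uncultured well, yet 38 lay above the uncultured median, so the cultured wells held both extremes. Control wells held 12 counts of Top2a on the uncultured plate, in 8 wells, and 0 on the cultured plate. How far background raised the lowest uncultured wells was not tested. Fewer dividing cells and less RNA of these genes per dividing cell cannot be told apart in the sums over wells. DNA replication genes had 6 of 30 members at least 2-fold lower and 0 higher, with a median of -0.56. Rrm2, the regulated chain of the enzyme that makes deoxynucleotides, was 3.66-fold lower (2.97 to 4.51), and Pcna, the sliding clamp, 1.46-fold higher (1.12 to 1.92). Among D cyclins, CDK inhibitors and p53 targets 9 of 18 were higher and 0 lower. Cdkn1c, an imprinted CDK inhibitor with the most counts, was 1.07-fold lower (1.0 to 1.14), and Gadd45b, a stress sensor of growth arrest, had 1 uncultured count and was 22.4-fold higher (3.87 to 899).

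The promoters of 3 mitosis genes that were lower are shown with the cell-cycle genes homology region, TTTGAA on either strand, where the DREAM and MuvB complexes bind, in capitals: Ube2c at chr2:164769679-164769928 on the plus strand, Ckap2 at chr8:22185820-22186069 on the minus strand and Cdk1 at chr10:69352913-69353162 on the minus strand.
Ube2c: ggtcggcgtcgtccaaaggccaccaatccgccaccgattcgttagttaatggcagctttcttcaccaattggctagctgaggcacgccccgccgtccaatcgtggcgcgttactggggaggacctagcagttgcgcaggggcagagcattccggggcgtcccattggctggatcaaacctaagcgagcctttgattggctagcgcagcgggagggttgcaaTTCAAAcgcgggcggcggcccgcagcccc
Ckap2: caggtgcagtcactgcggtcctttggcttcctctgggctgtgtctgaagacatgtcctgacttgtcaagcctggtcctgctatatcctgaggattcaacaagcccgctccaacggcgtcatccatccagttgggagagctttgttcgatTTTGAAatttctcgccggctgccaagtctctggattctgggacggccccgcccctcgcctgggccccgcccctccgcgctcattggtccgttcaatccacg
Cdk1: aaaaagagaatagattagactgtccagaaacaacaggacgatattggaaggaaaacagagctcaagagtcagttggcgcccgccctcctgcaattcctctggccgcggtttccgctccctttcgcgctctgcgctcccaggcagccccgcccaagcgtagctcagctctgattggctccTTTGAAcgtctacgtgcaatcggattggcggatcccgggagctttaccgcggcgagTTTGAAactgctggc
Ube2c, which loads ubiquitin for the anaphase-promoting complex, stood at 484 (433 to 539) CPM before and 129.7 (114 to 147) CPM after culture, 3.73-fold lower (3.15 to 4.42). Ckap2, a protein of spindle microtubules, stood at 157 (129 to 190.1) CPM before and 51.5 (41.8 to 62.8) CPM after culture, 3.05-fold lower (2.30 to 4.06). Cdk1, the kinase that drives entry into mitosis, stood at 394 (348 to 444) CPM before and 135 (119 to 153) CPM after culture, 2.91-fold lower (2.44 to 3.47), and its window holds 2 matches, 71 and 15 bases before the start. Of 26 windows of 25 list genes 12 held the hexamer (46.2%), against 5252 of all 32851 windows (16.0%). Among called genes with a window 8 of 18 held it, against 12 of 25 list genes in all, called or not.

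Genes that mark early developmental time were mostly lower after culture, 10 of 15 at least 2-fold and 0 higher, with a median of -1.15. Hmga2, which codes for an architectural DNA-binding protein of immature cells, stood at 1562 (1470.0 to 1659) CPM before and 92.9 (79.6 to 108) CPM after culture, 16.8-fold lower (14.3 to 19.8). It was counted in 107 of 113 uncultured and 80 of 205 cultured wells and stood at 81.4 (66.6 to 98.4) CPM in E12.5 explants. Peg3, an imprinted zinc finger gene of the embryo, stood at 1736 (1638 to 1838) CPM before and 352 (325 to 379) CPM after culture, 4.94-fold lower (4.49 to 5.44). Gpc3, a glypican with the most counts of the list, was 1.08-fold higher (0.988 to 1.18). Summed per well the list had a median of 5841 CPM (range 2346 to 11114) in uncultured wells and 2054 CPM (range 0 to 6372) in cultured wells, and 1 cultured well of 205 reached above the uncultured median. Imprinted growth genes went both ways, 5 of 20 higher and 5 lower, with a median of -0.01. Nnat, neuronatin, stood at 1088 (1011 to 1169) CPM before and 65.9 (54.8 to 78.5) CPM after culture, 16.5-fold lower (13.6 to 20.2), and it was counted in 105 uncultured and 52 cultured wells. H19, the maternal noncoding transcript, was 1.64-fold higher (1.58 to 1.71).

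Genes of ribosome assembly and the ribosomal proteins had medians on opposite sides of 0. Of 23 ribosome biogenesis genes 6 were at least 2-fold lower and 0 higher, with a median of -0.56; Npm1, nucleophosmin, stood at 3105 (2974 to 3239.8) CPM before and 1177 (1128 to 1227) CPM after culture, 2.64-fold lower (2.48 to 2.80). Of 33 ribosomal protein genes none reached 2-fold in either direction, with a median of 0.53, from Rpl7, 1.5-fold lower (1.40 to 1.60), to Rpl14, 1.93-fold higher (1.67 to 2.25). Chromatin genes had 2 of 25 higher and 2 lower. Nasp, a histone chaperone of replication, was 2.49-fold lower (2.09 to 2.96) and Hist1h2bc, a histone gene whose transcript can be polyadenylated, 4.73-fold higher (2.49 to 10.1). Integrins and adhesion genes had 4 of 21 higher and 2 lower, with Cd34, a sialomucin of stromal and endothelial cells, 7.95-fold higher (3.30 to 25), and Gpc3 as above.

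**Figure D3:**
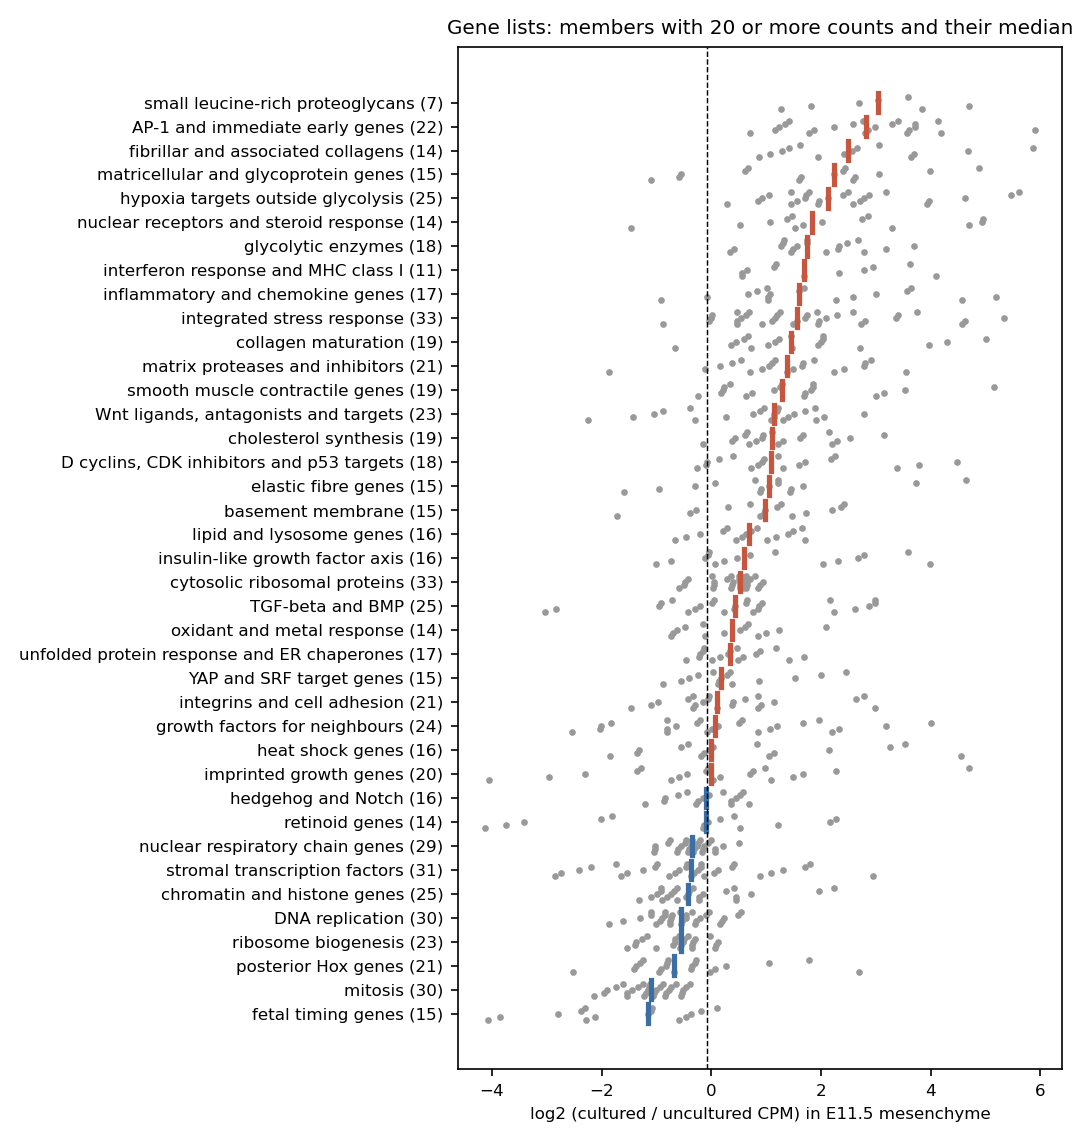
Log2 ratio of cultured to uncultured E11.5 mesenchyme for the members of each programme list (grey points; number measured in parentheses) with the list median (red above and blue at or below the dashed median of all 11012 genes, -0.08). Small leucine-rich proteoglycans stand highest at a median of 3.04 and fetal timing genes lowest at -1.15; the collagens hold the gate genes Col1a1 and Col3a1.

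Values per well show how far the plates overlapped. For collagen processing, collagens outside the gate, immediate early genes, glycolysis and hypoxia targets 153, 110, 122, 119 and 114 of 205 cultured wells lay above the highest uncultured well, although well depth also differed. Integrated stress response genes had 75 such wells, with a median of 1731 CPM (range 219.7 to 4836) in uncultured wells and 3609.6 CPM (range 493 to 15519) in cultured wells. The spread among cultured wells was wide for hypoxia and glycolysis, whose highest wells stood at 23225 and 42033 CPM and whose lowest at 536 and 1767 CPM. In E12.5 explants the medians were 3150.1 and 11382 CPM.

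**Figure D4:**
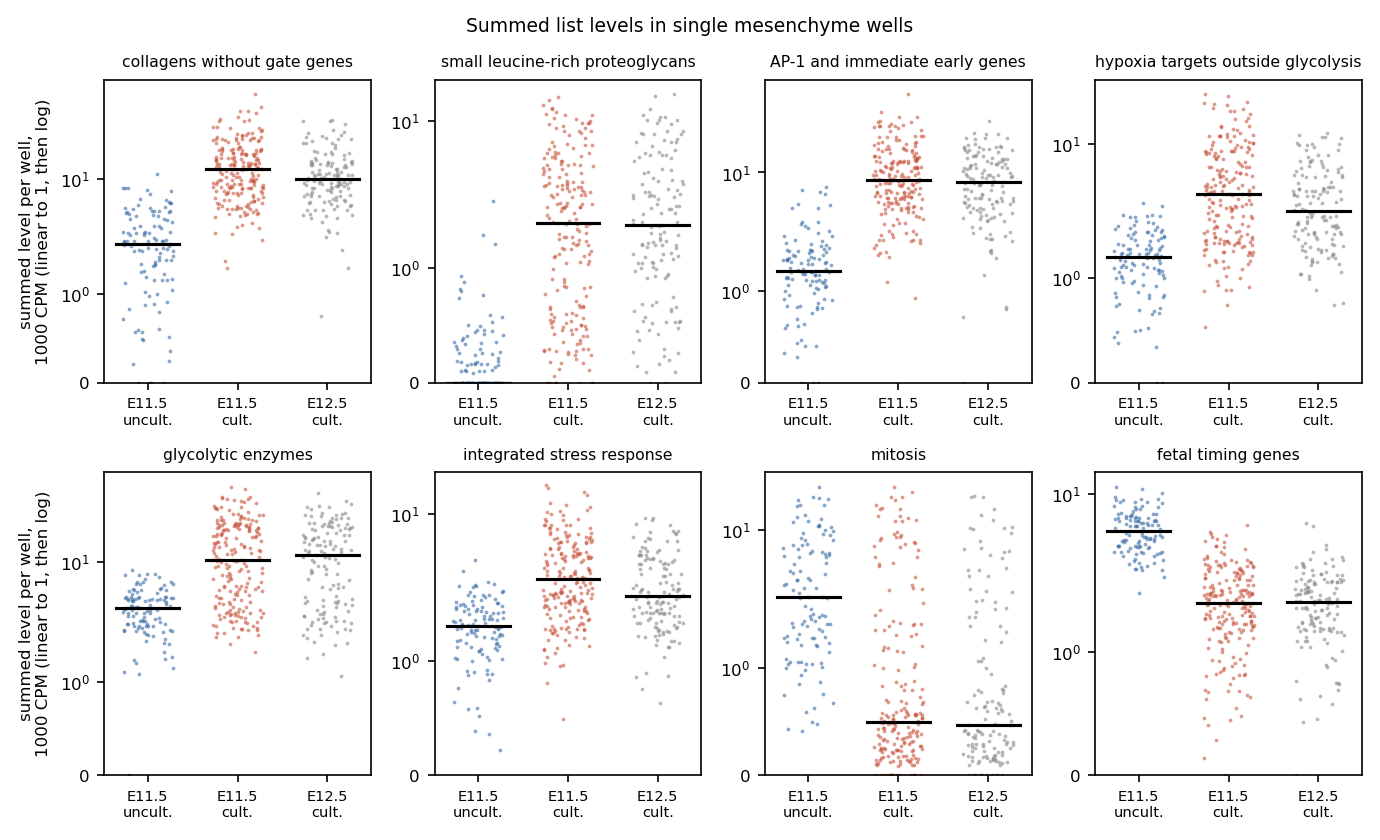
Each point is 1 mesenchyme well and its value the summed level of a gene list, for collagens without the gate genes, in units of 1000 CPM (linear up to 1, logarithmic above); black lines are medians. Points of E11.5 uncultured wells are blue, of E11.5 cultured wells red and of E12.5 cultured wells grey; for fetal timing genes 1 of 205 cultured wells lies above the uncultured median.

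Depth differed between the plates, so shares of wells with a count were also taken after thinning every well to 1000 counts. Thinned shares were read beside those in leukocyte wells of the same plate, that is wells with at least 2 counts of C1qa and Ptprc together, of which there were 17 before culture (median depth 6312 counts) and 14 after it (10284 counts). Dcn was found in 4.42% of uncultured and 57.1% of cultured mesenchyme wells (18.6% and 82.0% unthinned), against 0% and 7.14% of leukocyte wells. Col6a2 was found in 8.85% and 80.5% of mesenchyme wells (51.3% and 99.5% unthinned), but also in 64.3% of cultured leukocyte wells. Hmga2 was found in 70.8% and 8.78% of mesenchyme wells (94.7% and 39.0% unthinned) and in 52.9% of uncultured leukocyte wells. Penk had shares of 7.08% and 39.5% (14.2% and 80.0% unthinned), and the cultured leukocyte wells 35.7%, so on so few leukocyte wells the cultured share was not told apart from background. Unthinned, 64.3%, 100% and 92.9% of cultured leukocyte wells held counts of Dcn, Col6a2 and Penk, and 88.2% of uncultured leukocyte wells held Hmga2. For Socs3 and Klf2 the cultured mesenchyme shares of 19% and 10.7% lay below those of leukocyte wells, 28.6% and 14.3%, so the shares show no level above that of these wells; leukocytes are known to make both genes and so give no background for them. For Crabp1, Aldh1a2 and Foxd1 the uncultured mesenchyme shares were 33.6%, 48.7% and 36.3%, against 0%, 5.88% and 11.8% of leukocyte wells. Unthinned, the shares were 66.4%, 78.8% and 72.6% of mesenchyme wells and 47.1%, 70.6% and 41.2% of leukocyte wells, so many leukocyte wells also held counts of these genes.

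**Figure D5:**
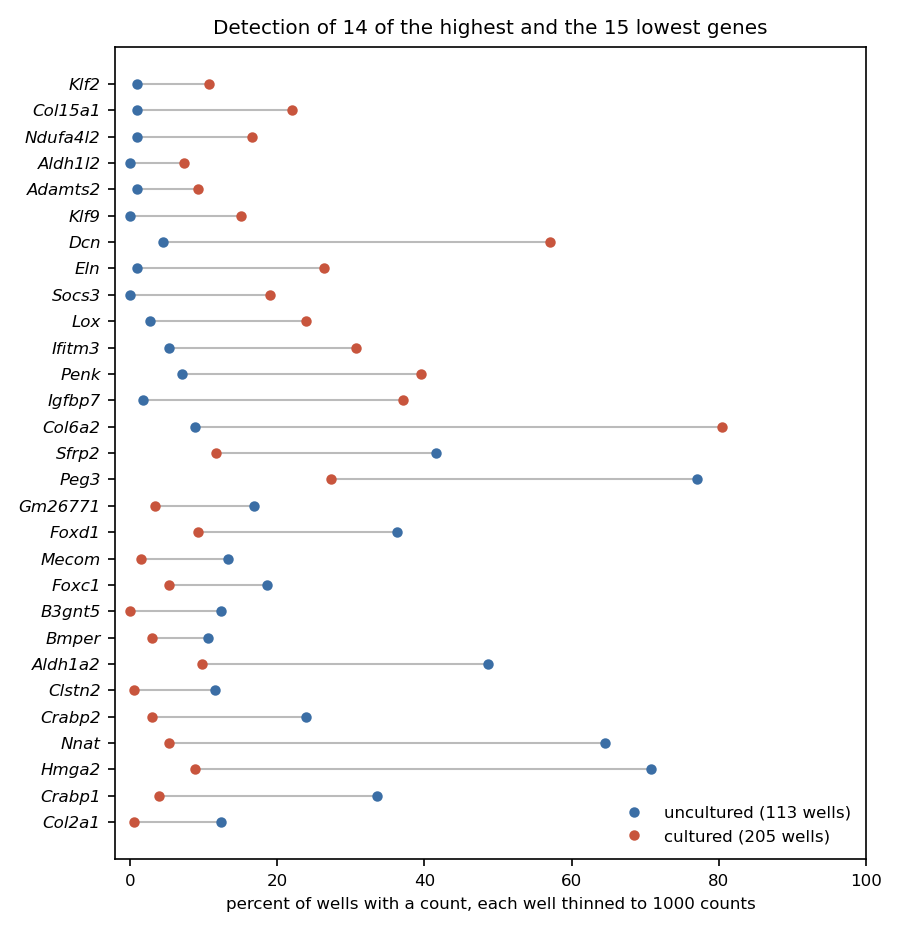
Percent of mesenchyme wells with a count of each of 14 of the 15 highest and the 15 lowest genes after thinning every well to 1000 counts, in uncultured (blue, 113 wells) and cultured (red, 205 wells) E11.5 mesenchyme. The share of Col6a2 goes from 8.85% to 80.5% and that of Hmga2 from 70.8% to 8.78%.

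Some of these differences did not stay past 2-fold in every subset of wells, and their log2 ratios there were as follows. Within wells with Y-linked transcripts and no Xist they were Lama1 -0.69, Fkbp5 -0.98, Efemp1 -0.49, Ctnnb1 -0.89 and Upk3b 0.31. Within wells with Xist and no Y-linked transcript they were Hoxc10 -0.27, Fbln1 0.85, Ctgf 0.49 and Ndufa1 -0.22, and Cthrc1 and Prelp, on 2 and 1 uncultured counts, were on the other side of 0 at 0.36 and -0.0527. Over all kept wells, cells of other types included, they were Gapdh 0.60, Ctnnb1 -0.95, Gli3 -0.92, Ndufa1 -0.86, Sox9 -0.22 and Efemp1 -0.06, and Kdr stood on the other side at -0.73. With wells holding further cell type markers left out they were Anxa2 0.82, Apcdd1 0.80, Cthrc1 -0.66 and Ftl1 0.97, and after thinning Col9a2 0.36, Efemp1 -0.86, Ndufa1 -0.27 and Cthrc1 0.14. The Anxa2 and Ftl1 ratios, close to 2-fold to begin with, were also under it with control wells subtracted, at 0.94 and 0.93. For Aldoc, Elane, Gadd45b, Hoxd13, Htra1, Icam1, Kdr, Myh11, Nov, Rbp4 and Tgfb1 at least 1 subset held no uncultured count, and the bound against 3 counts was then under 2-fold.

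The cultured plate of E12.5 kidneys was set beside these values, without a comparison of the 2 contrasts, which would share the uncultured plate. Between the cultured plates, which differ in embryonic stage, in plate and, by their titles, in days of culture, Inhba, a subunit of activin, stood at 81.8 (69.4 to 95.7) CPM in E11.5 and 11.51 (6.44 to 19) CPM in E12.5 explants, with 13.2 (6.05 to 25.1) CPM before culture; it was named after its values were seen. Kdr, the VEGF receptor of endothelium, stood at 30.8 (23.4 to 39.8) and 2.30 (0.475 to 6.73) CPM, on 1 count before culture. Upk3b, a mesothelial marker, stood at 26.1 (19.2 to 34.4) and 1.54 (0.186 to 5.55) CPM, with 53.2% of the E11.5 counts in 1 well. Esr1, Osr2 and Hoxd13, given above, were likewise higher in E11.5 than in E12.5 explants, with intervals that do not overlap, whereas Eln, Igfbp7 and Penk were higher in E12.5 explants, the last at 1779 (1707 to 1853) CPM and Igfbp7 at 956 (904 to 1011) CPM. Intervals of Col15a1, Crabp1, Aldh1a2 and Hmga2 overlapped between the cultured plates: in E12.5 explants they stood at 353 (322 to 387), 43.0 (32.5 to 55.8), 97.6 (81.3 to 116) and 81.4 (66.6 to 98.4) CPM.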

How the data were processed

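Single cells were measured by SORT-seq, in which each well of a 384-well plate has its own barcode and transcripts carry molecular identifiers. The authors deposited 1 table per plate, with genes in rows, wells in columns and expected counts as values. Within 0.1, 100% of the values above 0 equal numbers of identifiers corrected for 4096 possible ones, and 1.43% to 1.90% were not whole. STAR 2.6.1a, featureCounts 1.5.2 and GRCm38.p5 are listed, per the submitters' processing notes. Whole counts had been assumed in the plan; values were rounded only for intervals and thinning, and no count model was fitted. The column named for unknown barcodes, with 4.21% to 4.27% of the plate totals, was left out.

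Kept wells were not labelled as controls or as holding more than 1 cell, had at least 1000 counts of nuclear genes and had at most 30% mitochondrial counts. No doublet caller was run. The members and gene lists were chosen with earlier results of these data known. Genes were called at a ratio of at least 2 with at least 20 counts over both plates, and ratios have Clopper-Pearson 95% intervals of the split of counts. The intervals were run on simulated independent Poisson counts, which lack the spread between wells, so their coverage in these data was not tested. Named genes were the 15 highest and 15 lowest ratios with at least 100 counts and at most 20% of them in 1 well, the highest, lowest and most counted member of each list, and the gate genes. Some of these genes are not reported here. Acta2, Ankrd37, Asns, Atf3, Cdk1, Ckap2, Esr1, Igf1, Igf2, Inhba, Meis1, Nupr1, P4ha1, P4ha2, Pdgfra, Tagln, Tcf21, Ube2c and the mitochondrial transcripts were chosen after their values were seen. Promoter windows are those of RefSeq on GRCm38.p6, and their motifs were chosen after the data were seen. Alternatives changed the weight of cells, the scaling, the count minimum, the well limits, the marker lists of the gate, the depth, the background and the wells used. Tools were numpy 2.4.6, pandas 2.3.3, scipy 1.17.1 and matplotlib 3.10.9 in python 3.11.15.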

Additional observations from a re-analysis of the deposited data

Results flagged for a closer look

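The tables list 3 added sequences, of the reporter alleles and a selection cassette, which the comparisons leave out of the totals; all 3 were counted in cultured E11.5 mesenchyme above the level of the uncultured wells. The sequence named for EGFP, IRES and Cre stood at 32.9 CPM (25.2 to 42.2) in 50 of 205 cultured wells, against 1 count or 1.47 CPM in 113 uncultured wells, a ratio of 22.4 (3.87 to 899), and at 47.6 CPM in E12.5 explants. That of tdTomato stood at 65.3 CPM (54.3 to 77.9) in 83 of 205 cultured wells, against 1 count in the uncultured wells, which do not carry this reporter by their labels, a ratio of 44.4 (7.83 to 1769). The neomycin resistance sequence stood at 90.3 CPM (77.2 to 104.9) in 80 cultured wells and 45.6 CPM (31.0 to 64.7) in 23 uncultured wells, a ratio of 1.98 (1.34 to 3.01). On the uncultured plate, control wells held 3 counts of the neomycin sequence and none of the other two.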

How the results depend on the processing

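No paired analysis was possible because each group holds 1 plate. Subsets by sex and the use of all kept wells were chosen after the data were seen. The 1618 genes at least 2-fold higher became 580 with at least 100 counts, 513 after thinning, 2503 over all kept wells and 829 in wells with Y-linked transcripts and no Xist. The 1080 lower genes became 443 and 484 with the first 2 of these settings, and in the Y-linked wells 46.0% of the called genes were higher, against 60.0%. Both counts stayed within 1.5 times under the other alternatives, from 1098 to 2042 higher and from 818 to 1489 lower. The genes called differed more than these totals. Of 1264 higher and 1217 lower genes in wells with Xist and no Y-linked transcript, 533 and 428 were also called in the main comparison. In all kept wells 1224 of 2503 higher and 641 of 1489 lower genes were, and with deep wells included 1559 of 1656 and 1007 of 1103. The mesenchyme shares of 33.5% and 68.3% became 17.2% and 35.7% with further marker lists left out. The median of all genes moved from -0.08 to 0.05 with median-ratio scaling and to 0.03 over all kept wells, and to -0.15 in wells with Xist and no Y-linked transcript.

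Some log2 medians of gene lists changed sign. Coelomic and gonad markers turned to -0.97 with at least 10 and at least 100 counts, -1.06 with further marker lists left out, -1.38 after thinning, -0.63 in Y-linked wells and -0.72 in Xist wells. Neural markers turned to 0.79 in wells of at least 3000 counts, 1.89 over all kept wells and 0.24 in Xist wells. Over all kept wells the endothelial list turned to -1.10, the epithelial list to -0.22 and the cartilage list to 0.080, and in Xist wells the granulocyte list to -0.70. Of programme lists, stromal transcription factors turned from -0.36 to 0.35 and retinoid genes from -0.10 to 0.45 over all kept wells. Heat shock and imprinted growth genes, with medians near 0, turned there to -0.21 and 0.09. Of single genes, Rgs5 turned to 0.10, Kdr to -0.73 and Rspo1 to -1.47 over all kept wells. Cthrc1 turned to 0.14 after thinning and 0.36 in Xist wells, where Prelp turned to -0.053 and Scd1 to -0.18. The Y-linked gene Uty turned to 0.062 in Y-linked wells. The cause was not tested. Counting a bound under 2-fold as lost, of 107 named genes past 2-fold 101 kept it with control wells subtracted and 103 with median-ratio scaling, 88 over all kept wells, 83 of 99 after thinning, 88 of 103 with further marker lists left out, 87 of 101 in Y-linked and 75 of 92 in Xist wells. Genes with under 20 counts over both plates were not measured at this depth.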
